A study of Mus musculus with 25 samples.

Results

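The genes described here are 10 genes of the nodes of Ranvier, the paranodes, the Schwann cell microvilli and the Schmidt-Lanterman incisures: Nfasc, Nrcam, Ank3, Gldn, Cntn1, Cntn2, Epb41l3, Gjb1, Cadm4 and Dlg1. They were taken as a named list of 10 of the 56956 genes counted, and each symbol matched exactly 1 Ensembl identifier. The list was drawn up by the known place of each protein, with earlier results of these data known. RNA was sequenced from whole sciatic nerve of 5 groups of mice aged 3, 5, 7, 9 or 12 weeks, with 1 library per group and age, and each library was a pool of nerves from 4 to 5 animals of both sexes. C3 (genotype B6.Cg-Tg(PMP22)C3Fbas/J, on C57BL/6J) and C22 (genotype Tg(PMP22)C22Clh, on FVB/NRJ) are models of the demyelinating neuropathy Charcot-Marie-Tooth disease type 1A and carry human PMP22 as extra copies of a yeast artificial chromosome, fewer in C3 than in C22. WT-C3 is C57BL/6J and WT-C22 is FVB/NRJ, both without the transgene, and mouse Pmp22 is present in all 5 groups. C3 c-JunP0Cre carries the C3 transgene and lacks c-Jun in Schwann cells, through Cre driven by the P0 (myelin protein zero) promoter. The labels name neither its strain background nor a group with Cre or the floxed gene alone. The ages within a group served as its 5 replicates, so the spread behind each test includes the effect of age. The whole nerve also holds fibroblasts, perineurial cells, vessels and macrophages, and in such bulk RNA fewer cells of a type and less RNA per cell cannot be told apart.

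Myelinated axons fire at the nodes of Ranvier, short gaps in the myelin where sodium channels are held in place by ankyrin G (Ank3) and by the adhesion molecules neurofascin (Nfasc) and NrCAM (Nrcam), while gliomedin (Gldn) is secreted from Schwann cell microvilli and binds both of them. At the paranode next to each node, contactin 1 (Cntn1) and Caspr (Cntnap1) on the axon meet the glial isoform of neurofascin, and protein 4.1B (Epb41l3) links the axonal complex to the cytoskeleton. Contactin 2 (Cntn2) sits in the juxtaparanode with potassium channels. Along the internode, Cadm4 (a nectin-like adhesion molecule of Schwann cells) joins the Schwann cell to the axon, connexin 32 (Gjb1) forms gap junctions through the noncompact myelin of incisures and paranodes, and Dlg1 is a scaffold protein of noncompact myelin. Gene counts do not separate isoforms, so neuronal and glial neurofascin were counted together.

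On the GRCm39 assembly, the genes lie at chr1:132492428-132669564 (minus strand) for Nfasc, chr12:44375287-44651976 (plus strand) for Nrcam, chr10:69234603-69863268 (plus strand) for Ank3, chr9:54193617-54249070 (plus strand) for Gldn and chr15:91948938-92240393 (plus strand) for Cntn1. Cntn2 lies beside Nfasc at chr1:132437165-132470994 (minus strand), and Epb41l3, Gjb1, Cadm4 and Dlg1 lie at chr17:69382677-69598256 (plus strand), chrX:100419984-100429547 (plus strand), chr7:24181425-24203964 (plus strand) and chr16:31482187-31693947 (plus strand). All 10 are protein-coding. Ank3 shares exon sequence with Cdk1 on the opposite strand, and over the 25 libraries Cdk1 held 1832 reads and Ank3 171407. Whether counting used the strand is not given in the sources used here. The promoters of 3 genes are shown because these genes lead the changes described below: Cadm4 had the largest fall in C22, Cntn1 differed most between C3 c-JunP0Cre and C3, and Gldn was the member that rose in C3. Each is the 250 bases before the start of the gene's canonical transcript, read from GRCm39 on the gene's strand, 5′ to 3′, at chr7:24181198-24181447, chr15:91948688-91948937 and chr9:54193367-54193616. Capitals mark matches to motif letters, on either strand, of the AP-1 factors to which c-Jun belongs (TGANTCA), of the EGR zinc finger factors (GNGTGGG) and of the SOX factors (ACAANG).
Cadm4: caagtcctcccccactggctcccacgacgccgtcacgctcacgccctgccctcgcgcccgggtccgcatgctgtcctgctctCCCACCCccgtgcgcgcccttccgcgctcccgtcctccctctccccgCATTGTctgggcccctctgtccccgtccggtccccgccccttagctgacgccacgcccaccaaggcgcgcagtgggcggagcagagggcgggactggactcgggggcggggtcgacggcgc
Cntn1: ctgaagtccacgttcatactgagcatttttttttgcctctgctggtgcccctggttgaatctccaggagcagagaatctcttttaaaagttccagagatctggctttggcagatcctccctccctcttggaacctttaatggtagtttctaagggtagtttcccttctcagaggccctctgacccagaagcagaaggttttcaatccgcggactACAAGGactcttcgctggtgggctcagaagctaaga
Gldn: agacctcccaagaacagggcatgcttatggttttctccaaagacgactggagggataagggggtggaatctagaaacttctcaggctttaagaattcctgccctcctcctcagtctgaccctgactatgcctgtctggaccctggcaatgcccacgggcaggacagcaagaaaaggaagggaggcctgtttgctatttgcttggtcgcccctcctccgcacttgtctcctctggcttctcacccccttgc

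The Cadm4 window held 1 EGR match, 168 bases before the start, and 1 SOX match, 121 bases before it, both on the reverse strand. The Cntn1 window held 1 SOX match at 36 bases, and the Gldn window held no match to the 3 motifs. Of the 10 members, 4 (Nfasc, Nrcam, Gjb1 and Cadm4) had an EGR match and 5 (Cntn1, Cntn2, Epb41l3, Cadm4 and Dlg1) a SOX match, and 0 had an AP-1 match. The 2 EGR matches of Nrcam overlap each other, and no other matches overlap. Among 21757 windows of the same length before protein-coding genes, 28.4% held the EGR letters, 34.9% the SOX letters and 6.18% the AP-1 letters. These matches describe the sequence only, and several members have other annotated start sites.

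Depth ranged from 2140142 to 49072746 deduplicated read counts on genes per library (median 24663235). The C3 library at 9 weeks was the shallow one, with 14 reads of Cntn1. Human PMP22 was counted at 10140 to 13990 CPM (read counts scaled to the size of the library) in C3, 7896 to 16280 in C3 c-JunP0Cre and 9797 to 13950 in C22, against at most 6.43 in any wild-type library. Mouse Jun, the gene deleted in Schwann cells, was at 26.4 to 31.8 CPM in C3 c-JunP0Cre and 94.1 to 125 in C3. The presence of the transgene and of the deletion thus matched the labels in all 25 libraries. The larger number of copies in C22 did not show in human PMP22 RNA. Its means were 12670 CPM in C3 and 11890 CPM in C22, with overlapping ranges. The Schwann cell markers Sox10, Erbb3 and S100b were present in every library.

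Compared per kilobase of exon, Cadm4 was the most abundant member of all in each group. In WT-C3 nerve it stood at 675 ± 45.4 CPM per kilobase (mean ± SD, n = 5 ages). Gldn at 62.4 ± 9.04, Gjb1 at 46.4 ± 9.11 and Nfasc at 31.7 ± 3.64 CPM per kilobase followed, and the ranges of neighbours in this order overlapped. Below them came Ank3 (9.32 ± 0.617) and Dlg1 (6.37 ± 0.261), whose ranges were apart from their neighbours. Nrcam (4.11 ± 0.686) and Epb41l3 (3.29 ± 0.558) overlapped each other. The order ended with the contactins, Cntn1 at 0.701 ± 0.118 and Cntn2 at 0.0245 ± 0.015 CPM per kilobase. Which cells of the nerve the RNA of each member came from was not tested. Dividing by the canonical transcript instead of the union of exons, a check added after the values were seen, exchanged Gldn with Gjb1 and Nrcam with Epb41l3. In C22 the means of Dlg1 and Ank3 stood in the opposite order, with overlapping ranges.

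**Figure D1:**
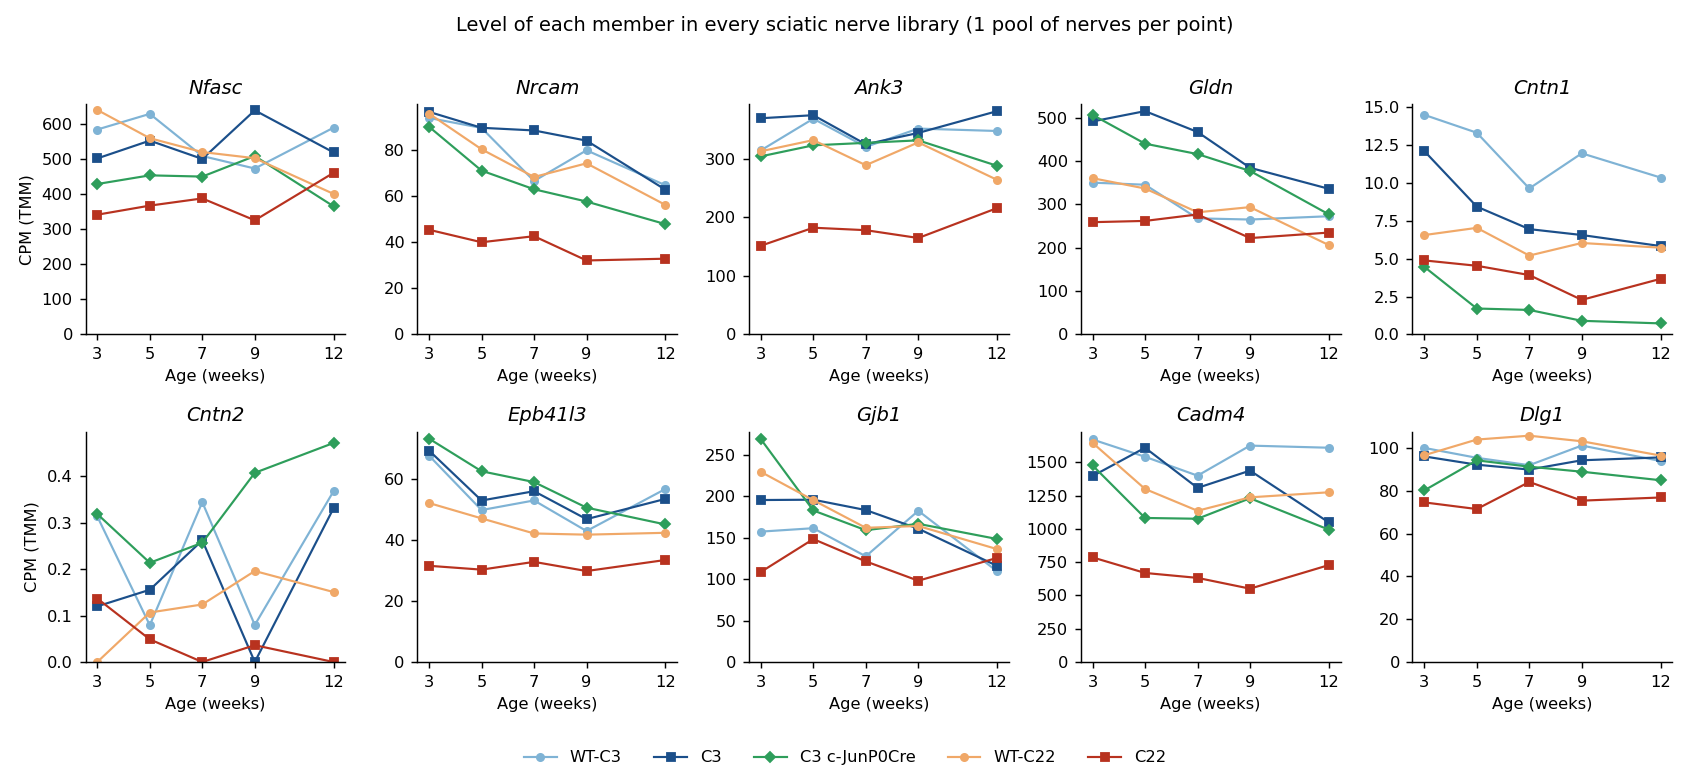
Level of each of the 10 members in the 25 libraries, in CPM after TMM scaling (vertical axis, from 0, a scale per panel) against age in weeks (horizontal axis). Each point is 1 pool of nerves and lines join the ages of a group. The C22 points of Nrcam, Ank3, Epb41l3, Cadm4 and Dlg1 lie below every WT-C22 point, and the C3 c-JunP0Cre points of Cntn1 lie below every C3 point.

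The main comparisons asked how these genes stood in each model compared to its own wild type. In C22 nerve, 8 of the 9 tested members were lower than in WT-C22, by 24.7% (Dlg1) to 49.1% (Cadm4), and 0 were higher. In C3 nerve, 1 of the same 9 passed the test, Gldn, which was 45.9% higher than in WT-C3, and 0 were lower. Each comparison was tested with the quasi-likelihood test of edgeR over all 13993 genes kept, with Benjamini-Hochberg adjusted p-values and a threshold of 0.05. Over all genes tested, 20.5% were called lower and 21.9% higher in C22, and 11.4% lower and 12.5% higher in C3. The members' log2 fold changes had a median of -0.56 in C22 and of 0.06 in C3, against 0.005 and 0.001 over all genes tested. Scaling by library size alone moved the C22 median of all genes to 0.17 and the share of calls that were higher from 51.7% to 76.0% (from 52.1% to 71.4% in C3). Under that scaling 7 of the 9 members remained lower in C22, all but Nfasc and Gldn. Cntn2 did not pass the filter on low values and was not tested.

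**Figure D2:**
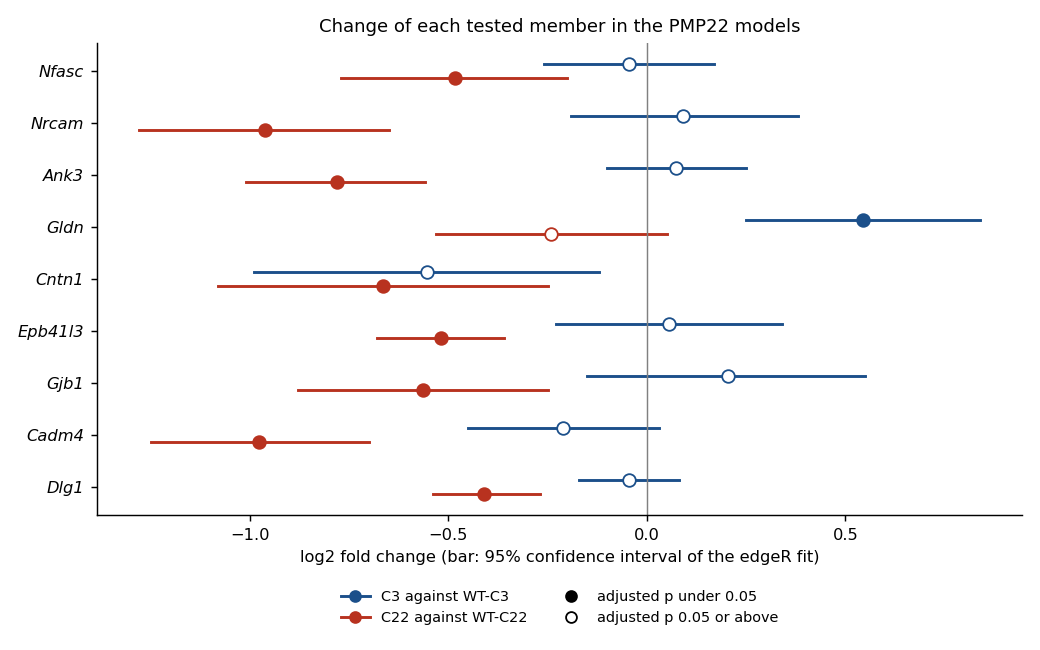
Log2 fold change (horizontal axis) of the 9 tested members in C3 compared to WT-C3 (blue) and C22 compared to WT-C22 (red), with bars for the 95% confidence interval of the edgeR fit over 5 libraries a group. Filled points have an adjusted p under 0.05. The 8 filled C22 points lie between -0.98 and -0.41, and the filled C3 point is Gldn at 0.55.

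Of the nodal genes Nfasc, Nrcam and Ank3, Nfasc had the highest counts. These are counts of RNA from whole nerve, and the share that came from axons or from Schwann cells was not tested. Nfasc stood at 640.0, 559, 519.9, 502 and 401 CPM in WT-C22, in order of age from 3 to 12 weeks as in all later series of 5 values, and at 341, 367, 388, 325 and 461 CPM in C22. C22 was lower at 4 of 5 ages, and at 12 weeks the order was turned, so the groups overlapped. The log2 fold change was -0.48 ± 0.13 (SE), adjusted p = 0.0111, and with scaling by library size alone it was -0.31 with adjusted p = 0.0538. In WT-C3 the values were 584, 629, 509, 473 and 589 CPM and in C3 502, 552, 500.3, 639 and 519 CPM, lower in C3 at 4 of 5 ages with overlapping groups (-0.04 ± 0.10 (SE), adjusted p = 0.789, and 0.035 with library size scaling).

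NrCAM is an adhesion molecule at the node that gliomedin binds. Nrcam counts were 95.6, 80.2, 68.2, 74.1 and 56.1 CPM in WT-C22 and 45.3, 39.9, 42.5, 32 and 32.8 CPM in C22. Every C22 value lay below every WT-C22 value, and the log2 fold change was -0.96 ± 0.14 (SE), adjusted p = 0.000278. In WT-C3 (93.7, 89.4, 66.4, 79.7 and 64.6 CPM) and C3 (96.4, 89.5, 88.3, 83.9 and 62.7 CPM) the values overlapped over nearly their whole range (0.09 ± 0.13 (SE), adjusted p = 0.645).

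Ankyrin G ties these adhesion molecules and the sodium channels to the spectrin skeleton, and it is also made by other cells of the nerve. Ank3 was at 313, 332, 289, 328 and 264 CPM in WT-C22 and at 152, 182, 178, 165 and 216 CPM in C22, which left a gap between the highest C22 and the lowest WT-C22 value (-0.78 ± 0.10 (SE), adjusted p = 0.000118). In WT-C3 it was at 315, 369, 321, 352 and 348 CPM and in C3 at 369.6, 375, 325, 344 and 382 CPM. The C3 groups overlapped (0.07 ± 0.08 (SE), adjusted p = 0.536).

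Gliomedin comes from the Schwann cell microvilli and was the one member that passed the test in C3. Gldn was at 350.1, 345, 268, 265 and 273 CPM in WT-C3 and at 491, 515, 467, 384 and 336 CPM in C3. C3 was higher at 5 of 5 ages, with overlap of the groups because the 12 week C3 value fell below the 3 and 5 week values of WT-C3. The log2 fold change was 0.55 ± 0.13 (SE), adjusted p = 0.0126, and it passed the test in each alternative fit and with each library left out. In WT-C22 the values were 360.4, 337, 282, 294 and 206 CPM and in C22 259, 262, 277, 222 and 235 CPM, lower in C22 at 4 of 5 ages. That change did not pass the test (-0.24 ± 0.13 (SE), adjusted p = 0.165), except without the WT-C22 library of 12 weeks (-0.35, adjusted p = 0.0116).

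At the paranode, contactin 1 had the lowest level of the tested members. Cntn1 stood at 6.56, 7.04, 5.21, 6.04 and 5.73 CPM in WT-C22 and 4.89, 4.53, 3.92, 2.28 and 3.67 CPM in C22, without overlap. The log2 fold change was -0.66 ± 0.19 (SE), adjusted p = 0.0143, and with all 25 libraries in 1 fit it was -0.66 with adjusted p = 0.0887. In WT-C3 the values were 14.5, 13.3, 9.64, 12 and 10.4 CPM and in C3 12.1, 8.44, 6.95, 6.56 and 5.83 CPM. C3 was lower at 5 of 5 ages, and the 3 week C3 value was the one that overlapped WT-C3. The change in C3 did not pass (-0.56 ± 0.20 (SE), adjusted p = 0.0624), whereas it passed with DESeq2 (-0.56, adjusted p = 0.0390) and without the C3 library of 3 weeks (-0.77, adjusted p = 0.00933).

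Protein 4.1B anchors the axonal paranodal and juxtaparanodal complexes. Epb41l3 was at 52.2, 47.1, 42.2, 41.8 and 42.4 CPM in WT-C22 and at 31.6, 30.3, 32.9, 29.9 and 33.5 CPM in C22. The C22 values were nearly equal at all ages and lay below all WT-C22 values (-0.52 ± 0.07 (SE), adjusted p = 0.000187). In WT-C3 (67.7, 49.9, 53, 43 and 56.8 CPM) and C3 (69.4, 53, 56, 46.9 and 53.5 CPM) the values ran side by side (0.06 ± 0.13 (SE), adjusted p = 0.796). Cntn2, the juxtaparanodal contactin, was at or near the floor of detection in all 5 groups, with 0 to 13 reads in a library and at most 0.472 CPM. The C22 libraries held 4, 1, 0, 1 and 0 reads and the WT-C22 libraries 0, 1, 3, 5 and 6, and a difference between groups was not detectable at this depth.

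Among the noncompact myelin genes, connexin 32 is the channel protein whose mutations cause the X-linked form of Charcot-Marie-Tooth disease. Gjb1 counts were 229, 195, 162, 164 and 136 CPM in WT-C22 and 109, 148, 121, 98 and 126 CPM in C22. C22 was lower at 5 of 5 ages, and the groups overlapped through the 5 week C22 and the 12 week WT-C22 value (-0.56 ± 0.14 (SE), adjusted p = 0.00818). In WT-C3 the values were 157, 161, 128, 182 and 109.5 CPM and in C3 195, 196, 183, 161 and 116 CPM, with overlapping groups (0.20 ± 0.16 (SE), adjusted p = 0.386).

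Cadm4 links the Schwann cell membrane to the axon along the internode and had the largest change of the members in C22. Its values were 1648, 1301, 1137, 1238 and 1276 CPM in WT-C22 and 787, 669, 632, 551 and 728 CPM in C22. The highest C22 value was well below the lowest WT-C22 value, and the log2 fold change was -0.98 ± 0.12 (SE), adjusted p = 8.95e-05. In WT-C3 Cadm4 was at 1673, 1543, 1401, 1627 and 1611 CPM and in C3 at 1398, 1611, 1309, 1439 and 1050 CPM. C3 was lower at 4 of 5 ages with overlapping groups (-0.21 ± 0.11 (SE), adjusted p = 0.18, 95% confidence interval -0.45 to 0.03).

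The scaffold protein Dlg1 had the smallest of the changes that passed the test in C22. Dlg1 was at 96.6, 104, 106, 103 and 96.4 CPM in WT-C22 and at 74.5, 71.4, 84.1, 75.4 and 76.8 CPM in C22, without overlap (-0.41 ± 0.06 (SE), adjusted p = 0.000301). In WT-C3 Dlg1 lay between 91.9 CPM at 7 weeks and 101 CPM at 9 weeks, and in C3 it was at 96, 92.2, 89.9, 94.2 and 95.6 CPM. The C3 groups overlapped (-0.05 ± 0.06 (SE), adjusted p = 0.599, and 0.031 with library size scaling).

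In all, 6 of the 9 tested members had every C22 value below every WT-C22 value (Nrcam, Cntn1, Epb41l3, Ank3, Cadm4 and Dlg1), as did 14.5% of all genes tested. Markers of other cells moved in the same comparison. The 8 neuronal markers (among them the neurofilament genes Nefl, Nefm and Nefh, whose RNA can come from axons) were lower in 8 of 8, with a summed level of 45.3 to 52.9 CPM in C22 and 103 to 128 CPM in WT-C22, and none of them was at 0. Of the 8 general Schwann cell markers 6 were higher and 1 (S100b) lower, with sums of 3799 to 5116 and 2142 to 3404 CPM. Skeletal muscle markers summed to 49.6 to 2120 CPM in C22 and 15.0 to 8448 CPM in WT-C22, with 0 of 6 called by edgeR (1 at an unadjusted p under 0.05; DESeq2 was not tabulated for the marker lists). The part of these markers in the members' changes was not tested.

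Whether the changes of C22 and C3 differed was tested directly in a fit of the 20 libraries of both models and their wild types. The change in C22 was lower than that in C3 for 7 of 9 members, where 7.31% of all genes tested were called lower in this comparison. Scaling by library size alone moved the share of calls that were higher, over all genes, from 39.4% to 63.1%. The difference between the 2 log2 fold changes was largest for Nrcam (-1.08 ± 0.21 (SE), adjusted p = 0.00155), Ank3 (-0.87 ± 0.13 (SE), adjusted p = 8.38e-05) and Gldn (-0.81 ± 0.20 (SE), adjusted p = 0.00973). It was -0.79 ± 0.23 (SE), adjusted p = 0.0291 for Gjb1, -0.79 ± 0.17 (SE), adjusted p = 0.00327 for Cadm4, -0.59 ± 0.15 (SE), adjusted p = 0.0147 for Epb41l3 and -0.38 ± 0.08 (SE), adjusted p = 0.00212 for Dlg1. Gjb1 lost its call, with adjusted p between 0.0509 and 0.0696, when 1 of 9 libraries was left out (C22 at 3 or 9 weeks, C3 at 3, 5 or 7 weeks, WT-C22 at 3 or 5 weeks, or WT-C3 at 7 or 12 weeks). Nfasc did not pass (-0.46 ± 0.17 (SE), adjusted p = 0.0805) but did without the C22 library of 12 weeks (adjusted p = 0.0363) or the WT-C22 library of 12 weeks (adjusted p = 0.0199). Cntn1 did not pass either (-0.13 ± 0.28 (SE), adjusted p = 0.855, 95% confidence interval -0.71 to 0.46), so a difference in either direction of up to the bounds of that interval remained possible. The 2 models differ in transgene copies and in strain, and these cannot be told apart.

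The partners of the members changed in both directions, where 20.5% of all genes tested were called lower and 21.9% higher in C22. In C22, 6 of 13 tested node and microvilli partners were lower and 3 higher (median log2 fold change -0.12), 4 of 10 paranode and juxtaparanode partners were lower and 4 higher (0.06), and 5 of 17 partners in noncompact myelin were lower and 7 higher (0.04). The largest changes upward were in the connexin Gjc3 (1.85 ± 0.25 (SE), adjusted p = 0.000145), the polarity scaffold gene Pals2 (1.72 ± 0.19 (SE), adjusted p = 3.55e-05) and the microvillar protein ezrin (Ezr, 1.19 ± 0.09 (SE), adjusted p = 1.31e-06). Those downward were in the nectin-like molecule Cadm3 (-1.48 ± 0.10 (SE), adjusted p = 8.43e-07), the nodal sodium channel Scn8a (-1.35 ± 0.16 (SE), adjusted p = 5.61e-05) and the kinesin Kif13b (-1.31 ± 0.12 (SE), adjusted p = 6.07e-06). Cadm3 and Cadm4, which bind each other across the axon and Schwann cell membranes, were thus both lower. Of 4 partner genes named whether called or not (Cntnap1, Mag, Epb41l2 and Gjc3), Caspr (Cntnap1) rose (0.35 ± 0.09 (SE), adjusted p = 0.00929). Cntn1, which Caspr needs to reach the axon surface, fell. Protein 4.1G (Epb41l2), the Schwann cell relative of protein 4.1B, fell (-0.74 ± 0.09 (SE), adjusted p = 4.76e-05), and myelin-associated glycoprotein (Mag) rose (0.70 ± 0.16 (SE), adjusted p = 0.00454).

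**Figure D3:**
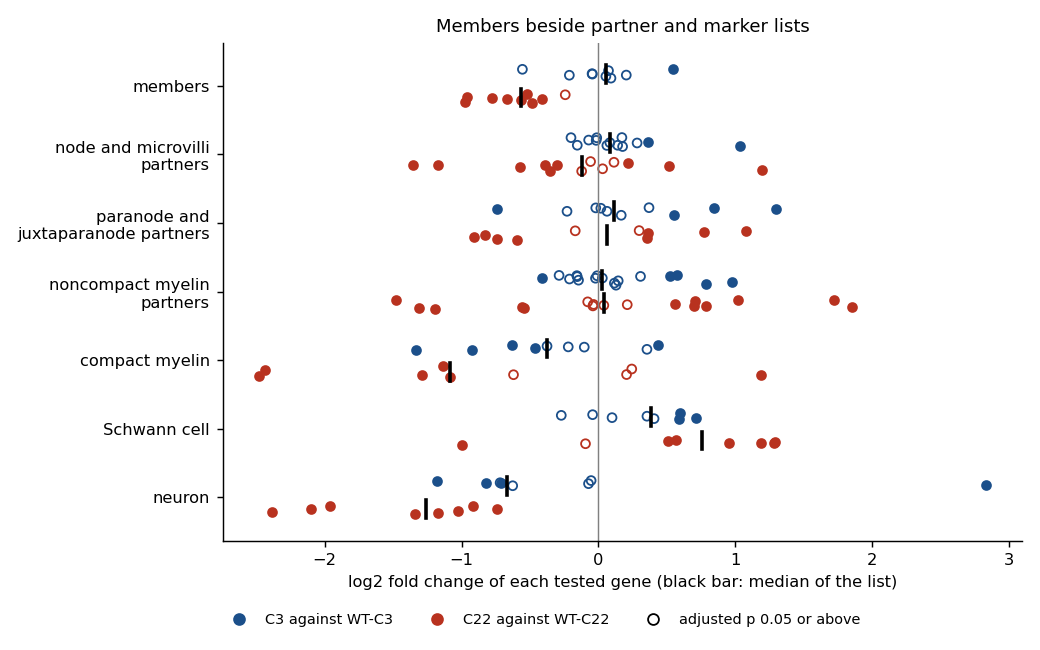
Log2 fold change (horizontal axis) of every tested gene of the members, the partner lists and 3 marker lists in C3 compared to WT-C3 (blue) and C22 compared to WT-C22 (red). Filled points have an adjusted p under 0.05, open points do not, and a black bar marks the median of a list. The red members lie at or below -0.24, while each partner list has red points on both sides of 0.

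In C3, 2 of 13 node and microvilli partners were higher and 0 lower (median 0.08). For the paranode and juxtaparanode 3 of 10 were higher and 1 lower (0.12), and for noncompact myelin 4 of 17 were higher and 1 lower (0.03). The shares of all genes tested were 12.5% higher and 11.4% lower. The juxtaparanodal potassium channel Kcna1 (1.30 ± 0.30 (SE), adjusted p = 0.00906), Ezr (1.04 ± 0.11 (SE), adjusted p = 0.000101), Cadm1 (0.97 ± 0.10 (SE), adjusted p = 0.000105), the scaffold gene Dlg4 (0.84 ± 0.16 (SE), adjusted p = 0.00363) and Gjc3 (0.78 ± 0.22 (SE), adjusted p = 0.0219) were higher. Adam22, which binds the Lgi proteins at the juxtaparanode, was lower (-0.74 ± 0.10 (SE), adjusted p = 0.000638). Leaving out WT-C3 at 7, 9 or 12 weeks ended the call of Gjc3 (adjusted p 0.0504 to 0.0591). Mag was higher (0.52 ± 0.16 (SE), adjusted p = 0.0377) and lost its call without any 1 of 8 libraries, all but C3 at 12 weeks and WT-C3 at 3 weeks (adjusted p 0.0559 to 0.0914). Cntnap1 (0.37 ± 0.15 (SE), adjusted p = 0.0859) and Epb41l2 (-0.23 ± 0.11 (SE), adjusted p = 0.162) did not pass, and Cntnap1 did when WT-C3 at 5 weeks was left out (adjusted p = 0.0483) or with library size scaling (0.45, adjusted p = 0.0364). Of the 8 neuronal markers 3 were lower and 1 higher in C3, with sums of 118 to 152 CPM and 108 to 159 CPM in WT-C3, and of the 8 Schwann cell markers 3 were higher.

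Deleting c-Jun from the Schwann cells of C3 mice asked whether this transcription factor, which drives the repair state of Schwann cells, bears on the same genes. Cntn1 was the member that stood apart. It was at 4.46, 1.71, 1.61, 0.897 and 0.726 CPM in C3 c-JunP0Cre (84, 56, 44, 22 and 20 reads) and at 12.1, 8.44, 6.95, 6.56 and 5.83 CPM in C3. C3 c-JunP0Cre was lower at 5 of 5 ages without overlap, by 77.4%. The log2 fold change was -2.14 ± 0.43 (SE), adjusted p = 0.0547, just above the threshold, so 0 of 9 members were called by edgeR, where 0.55% of all genes tested were called. At an unadjusted p under 0.05 there were 4 (Cntn1, Nfasc, Nrcam and Ank3), and DESeq2 called 1 of them (Cntn1, -2.11, adjusted p = 8.41e-05). The deviations of same-age libraries of these 2 groups from their group means were correlated at all 5 ages (r 0.123 to 0.615 across genes). With age as a block, Cntn1 passed (-2.22, adjusted p = 0.0017), and the number of all genes called was 273 in place of 77. Without the C3 c-JunP0Cre library of 3 weeks the value was -2.69 with adjusted p = 0.00336. Of the 8 neuronal markers edgeR called 0 (1 at an unadjusted p under 0.05), with a median log2 fold change of -0.23. Cntn1 also differed between the 2 wild-type strains (-0.98, adjusted p = 0.000272 by edgeR). The strain background of C3 c-JunP0Cre is not named, so loss of c-Jun and strain background cannot be told apart for Cntn1.

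The other members differed less between C3 c-JunP0Cre and C3. Nfasc was at 429, 454, 450.0, 508 and 365 CPM in C3 c-JunP0Cre, lower than in C3 at 5 of 5 ages, and Nrcam at 89.9, 70.9, 62.9, 57.5 and 47.8 CPM, also lower at 5 of 5 ages, with overlapping groups for both. Their log2 fold changes were -0.29 ± 0.10 (SE), adjusted p = 0.426 and -0.35 ± 0.16 (SE), adjusted p = 0.621, respectively. Ank3 (-0.18 ± 0.08 (SE), adjusted p = 0.574), Cadm4 (-0.21 ± 0.13 (SE), adjusted p = 0.794), Gldn (-0.12 ± 0.16 (SE), adjusted p = 0.937) and Dlg1 (-0.08 ± 0.06 (SE), adjusted p = 0.844) had smaller values below 0. Gjb1 (0.12 ± 0.18 (SE), adjusted p = 0.942) and Epb41l3 (0.05 ± 0.13 (SE), adjusted p = 0.987) had values above 0. Of the partner genes named whether called or not, Mag (-0.32 ± 0.18 (SE), adjusted p = 0.753), Epb41l2 (-0.09 ± 0.13 (SE), adjusted p = 0.942), Cntnap1 (-0.01 ± 0.15 (SE), adjusted p = 1) and Gjc3 (-0.01 ± 0.21 (SE), adjusted p = 1) did not pass the test. Of the 40 tested partner genes edgeR called 0, and 8 had an unadjusted p under 0.05. Skeletal muscle markers had a median log2 fold change of -2.46 (0 of 6 called by edgeR, 0 at an unadjusted p under 0.05), and their part in these values was not tested.

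**Figure D4:**
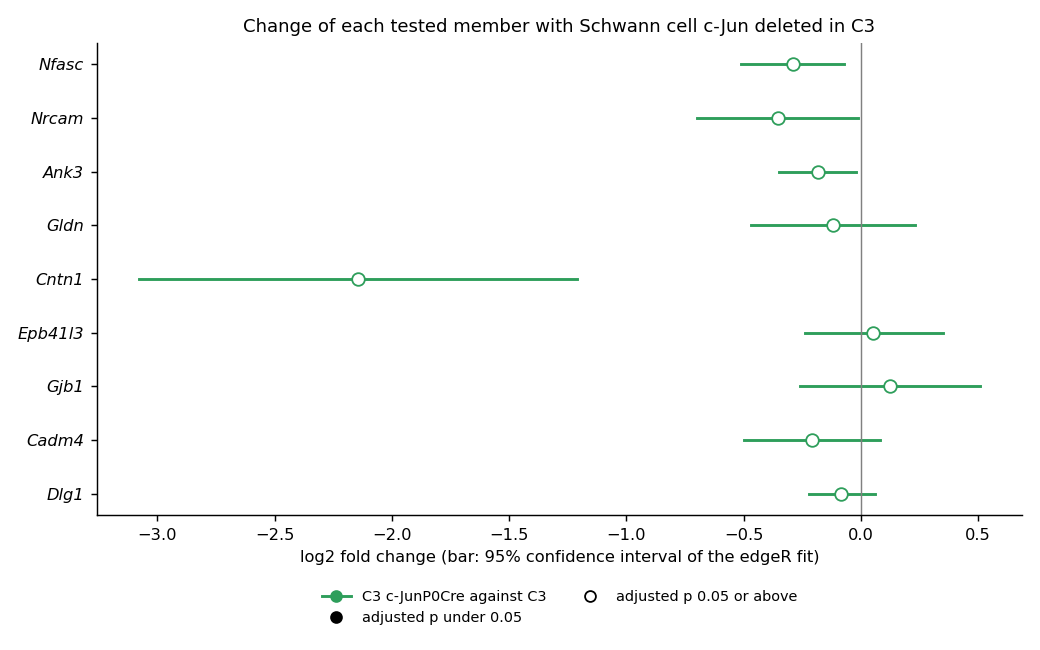
Log2 fold change (horizontal axis) of the 9 tested members in C3 c-JunP0Cre compared to C3, with bars for the 95% confidence interval of the edgeR fit over 5 libraries a group. Open points have an adjusted p of 0.05 or above. Cntn1 lies at -2.14 and the other 8 members lie between -0.35 and 0.12.

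C3 c-JunP0Cre was also compared to WT-C3, with the same WT-C3 libraries as in the comparison of C3. It had 3 of 9 members lower, where 11.3% of all genes tested were lower. Library size scaling moved the share of calls that were higher from 47.7% to 66.6%. Cntn1 was 84.7% lower, without overlap (-2.71 ± 0.39 (SE), adjusted p = 0.000432). Cadm4 was at 1478, 1083, 1077, 1231 and 995 CPM and lower at 5 of 5 ages with overlapping groups (-0.42 ± 0.12 (SE), adjusted p = 0.025). Nfasc was lower at 4 of 5 ages (-0.34 ± 0.11 (SE), adjusted p = 0.0457). The call of Cadm4 was lost with no filter on low counts (adjusted p = 0.0552) and without the C3 c-JunP0Cre library of 5 or 7 weeks or the WT-C3 library of 9 weeks (adjusted p 0.0525 to 0.0672). That of Nfasc was lost without any 1 of 8 libraries, all but those of 9 weeks (adjusted p 0.0543 to 0.109), and in 4 alternative fits. These were age as a block (adjusted p = 0.0611), filterByExpr (0.0532), library size scaling (-0.25, 0.126) and no filter (0.107). Gldn was at 506, 440.0, 416, 377 and 277 CPM in C3 c-JunP0Cre and higher at 5 of 5 ages, and it did not pass (0.43 ± 0.15 (SE), adjusted p = 0.0632) except in some alternatives, among them without the C3 c-JunP0Cre library of 12 weeks (0.53, adjusted p = 0.0097). Ank3 (-0.11), Nrcam (-0.26), Dlg1 (-0.13), Epb41l3 (0.10) and Gjb1 (0.33, log2 fold changes) did not pass. For Cntn1 the means ± SD over 5 ages were 12 ± 2.02 CPM in WT-C3, 7.98 ± 2.5 in C3 and 1.88 ± 1.5 in C3 c-JunP0Cre. The part of strain background in the last of these was not tested.

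The 2 wild types, which differ in strain, were compared as well. Cntn1 was 49.2% lower in WT-C22 (FVB/NRJ) than in WT-C3 (C57BL/6J), without overlap (-0.98 ± 0.14 (SE), adjusted p = 0.000272). It was the only one of 9 members called, where 11.7% of all genes tested were lower and 9.99% higher. This difference between the wild types was larger than that between C22 and WT-C22 (-0.66), though the 2 were not tested against each other. Epb41l3 (-0.26 ± 0.11 (SE), adjusted p = 0.125) and Cadm4 (-0.25 ± 0.11 (SE), adjusted p = 0.122) were lower in WT-C22 at 5 of 5 ages without passing the test. Epb41l3 passed without the WT-C3 library of 9 weeks (adjusted p = 0.0452) and Cadm4 without the WT-C22 library of 3 weeks (adjusted p = 0.0204). The remaining log2 fold changes were 0.26 for Gjb1, -0.16 for Ank3, -0.09 for Nfasc, -0.07 for Nrcam, 0.07 for Dlg1 and -0.02 for Gldn, and 0 of these 6 passed by edgeR or DESeq2 (0 at an unadjusted p under 0.05).

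Among the partners, 1 of 13 node and microvilli genes was lower and 4 higher in WT-C22 than in WT-C3. For the paranode and juxtaparanode 2 of 10 were lower and 1 higher, and for noncompact myelin 1 of 17 was lower and 4 higher. The shares of all genes tested were 11.7% lower and 9.99% higher. The largest called changes were Cadm2 (-0.62 ± 0.16 (SE), adjusted p = 0.0175), the syndecan Sdc4 (-0.61 ± 0.09 (SE), adjusted p = 0.000353), Kcna1 (-0.58 ± 0.19 (SE), adjusted p = 0.0454), Adam22 (-0.57 ± 0.08 (SE), adjusted p = 0.000405), E-cadherin (Cdh1, 0.46 ± 0.12 (SE), adjusted p = 0.0137) and the potassium channel subunit Kcnab2 (0.44 ± 0.09 (SE), adjusted p = 0.00389). The call of Kcna1 was lost with all 25 libraries in 1 fit (adjusted p = 0.12) and without any 1 of 7 libraries, all but WT-C22 at 9 weeks and WT-C3 at 7 and 12 weeks (0.0633 to 0.0943). Gjc3 (-0.42), Mag (-0.14), Cntnap1 (0.13) and Epb41l2 (-0.10, log2 fold changes) did not pass.

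The time course asked whether the members changed between 3 and 12 weeks within a group, with a natural spline of age (3 degrees of freedom) fitted to all 25 libraries and 15298 genes. In C3 c-JunP0Cre 2 of 9 members passed, Cntn1 (adjusted p = 0.0201) and Gldn (adjusted p = 0.0494), where 3.38% of all genes did. Both were highest at 3 weeks and lowest at 12 weeks. Their linear slopes were -0.28 ± 0.04 log2 units per week (SE) for Cntn1 and -0.09 ± 0.02 for Gldn. The call of Cntn1 was lost without the library of 3 weeks (adjusted p = 0.679) or 12 weeks (0.17), and that of Gldn without any 1 of the 5 (0.112 to 0.706). In WT-C3, C3, WT-C22 and C22, 0 of 9 members passed by edgeR, where 0.693%, 2.27%, 2.86% and 0.752% of all genes did. At an unadjusted p under 0.05 there were 1, 4, 4 and 1 members in these groups, and DESeq2 was not run on the time course. The time course of C3 differed from that of WT-C3 for 0 of 9 members (0 at an unadjusted p under 0.05, and 0.0261% of all genes). That of C22 differed from WT-C22 for 0 of 9 (3 at an unadjusted p under 0.05, Nfasc, Gjb1 and Ank3, and 0.0523% of all genes).

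The Nfasc values of WT-C22 went down from 640 CPM at 3 weeks to 401 CPM at 12 weeks, while those of C22 went from 341 to 461 CPM, and the difference in course did not pass the adjusted test (adjusted p = 0.309). Gldn, Nrcam, Cntn1 and Cadm4 had lower values at 12 than at 3 weeks in all 5 groups. The share of all genes that were lower at 12 weeks was not counted. For Cadm4 the falls in WT-C3 (1673 to 1611 CPM) and C22 (787 to 728 CPM) were small. At 3 weeks Nrcam was at 45.3 CPM in C22 and 95.6 CPM in WT-C22. The 8 members called in C22 were each lower than WT-C22 in the 3 week libraries, which were part of the test that called them. Gldn, which was not called, was lower there as well (259 and 360 CPM). There was 1 library per group and age, so no single age could be tested.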

How the data were processed

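Poly(A) RNA was sequenced from 25 pools of sciatic nerve. Per the labels and the study's methods, the authors checked reads with FastQC 0.11.9, trimmed them with cutadapt 2.10, aligned them with STAR 2.7.5a to GRCm39 plus the human transgene region of GRCh38, removed duplicates by molecular identifier with UMI-tools 1.1.1 and counted them with HTSeq 0.12.4. The deposited table holds raw counts for 56956 genes, 15 of them human. Lines that name no gene were left out of library sizes: 8.12 to 12.11% of reads fell in no feature, 1.78 to 2.04% were ambiguous and 2.76 to 3.93% did not map uniquely. Symbols came from GENCODE M39 (GRCm39).

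Counts were tested in R 4.3.3 with edgeR 4.0.16 (TMM scaling, quasi-likelihood test) on 13993 genes with log2 CPM above 1 in at least 7 of 25 libraries, group as the only term, and Benjamini-Hochberg adjustment over all of them. The scripts were tested on simulated data. Alternatives were DESeq2 1.42.0, median-ratio or library-size scaling, other filters, 1 fit of all libraries, age as a block, and each library left out. Same-age libraries correlated at r over 0.1 at all 5 ages, 3 to 12 weeks, only for C3 c-JunP0Cre and C3. Between the wild types r was 0.046 to 0.653, and between C3 c-JunP0Cre and WT-C3 0.019 to 0.351. The 10 members and all lists were chosen with earlier results of these data known. Named partner genes were the 6 with the largest called change in a comparison and 4 named whether called or not (Cntnap1, Mag, Epb41l2 and Gjc3). Libraries are pools, so p-values measure the spread between pools of different ages. All library names share the same prefix. Whether the libraries were prepared or sequenced as 1 batch is not given in the sources used here. Precision is limited by counting error at 2140142 reads in the shallowest library and by 5 libraries a group.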

Additional observations from a re-analysis of the deposited data

Results flagged for a closer look

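The response of C22 differed from that of C3, by the test of the difference between the 2 log2 fold changes (edgeR, adjusted p under 0.05), for 7 members: Gldn (-0.81), Nrcam (-1.08), Epb41l3 (-0.59), Gjb1 (-0.79), Ank3 (-0.87), Cadm4 (-0.79) and Dlg1 (-0.38). Of the named partners it differed for Scn8a (-1.17), Epb41l2 (-0.54), Cadm3 (-1.08), Pals2 (1.13) and Kif13b (-1.32). Kif13b was at -1.31 in C22 and -0.01 in C3, and Pals2 at 1.72 and 0.57. Strain and transgene copies cannot be told apart in these differences.

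The 3 week C3 c-JunP0Cre library stood apart from the other 4 of its group by Dixon's criterion for 2 members, Cntn1 (4.46 CPM, others 0.726 to 1.71) and Gjb1 (269 CPM, others 148 to 183). These were the 2 flagged of the 45 groups of 5 values examined. Chance alone gives about 1 in 20, so the number flagged was near that share. Without this library the Cntn1 change compared to C3 was -2.69 and that of Gjb1 was -0.04.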

How the results depend on the processing

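Of the alternative values computed for counts of called members, 160 stayed within 1.5 times the reported count and 25 did not. Of the log2 fold changes of single genes, 1455 kept their direction and their side of the threshold, 46 no longer passed it, 28 newly passed it and 23 changed sign. The count in C3 compared to WT-C3 was 2 in place of 1 with age as a replicate block and with DESeq2, and 1 to 2 with a library left out. In C3 c-JunP0Cre compared to C3 it was 1 in place of 0 with the block, with all libraries in 1 fit, DESeq2, filterByExpr, library size only and no filter, and 0 to 1 with a library left out. It was 1 to 3 with a library left out compared to WT-C3 (3 as reported), and in WT-C22 compared to WT-C3 it was 3 with the block and 1 to 2 with a library left out (1 as reported). The members with an age effect were 2 in C3 with a linear slope, 4 in C3 c-JunP0Cre with a linear slope or 2 degrees of freedom and 0 to 1 with a library left out, and 2 in WT-C22 with a linear slope and 1 with 2 degrees of freedom. The order of levels moved for 4 members with canonical lengths. All genes called in C3 c-JunP0Cre compared to C3 were 77 as reported, 273 with the block, 250 with DESeq2, 139 with all libraries, 134 with no filter and 43 to 98 with a library left out. Library size alone turned the C3 values of Dlg1 (0.031) and Nfasc (0.035), and no filter turned Gldn between wild types (0.012) and Cntnap1 (0.001) and Gjc3 (0.011) without c-Jun, all near 0. Leaving out a library gave -0.218 to 0.092 for Cntn1 in the difference, -0.099 to 0.004 for Nfasc and -0.030 to 0.147 for Epb41l3 in C3, -0.035 to 0.145 for Epb41l3, -0.039 to 0.189 for Gjb1, -0.084 to 0.110 for Cntnap1 and -0.139 to 0.177 for Gjc3 without c-Jun, and -0.101 to 0.084 for Gldn and -0.178 to 0.013 for Nrcam between wild types. In the comparisons other than C3 c-JunP0Cre with C3, r between same-age libraries was not over 0.1 at every age. It was 0.046 to 0.653 between wild types and 0.019 to 0.351 in C3 c-JunP0Cre with WT-C3. In C3 it was -0.224 to 0.362 and in C22 -0.15 to 0.436. Pairing by age was thus uneven, and the block was an alternative fit there. With it Cntn1 (-0.59, adjusted p = 0.0127) and Epb41l2 (-0.23, 0.0497) passed in C3, Gldn (0.41, 0.0156) and Nrcam (-0.28, 0.0368) in C3 c-JunP0Cre compared to WT-C3, and Cadm4 (-0.26, 0.0352), Epb41l3 (-0.25, 0.0426) and Gjc3 (-0.46, 0.00379) between wild types, by edgeR. The causes were not tested. Depth limited Cntn2 in all groups and Cntn1 in C3 at 9 weeks (14 reads).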

Other observations

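Other cell types and Schwann cell states were described by marker lists. The shares of all genes tested were 20.5% lower and 21.9% higher in C22, and 11.4% lower and 12.5% higher in C3. Compact myelin genes were lower in 5 of 9 and higher in 1 of 9 in C22 (median log2 fold change -1.08), and lower in 4 and higher in 1 in C3 (-0.38). Of the 4 tested repair Schwann cell genes, 4 were higher in C3 (2.06), and in C22 3 were higher and 1 lower (1.33). Perineurial genes were lower in 5 of 5 tested in C22 (-0.69) and 4 of 5 in C3 (-0.56). Endothelial and pericyte genes were lower in 6 of 8 in C22 (-0.52) and 2 of 8 in C3 (-0.28).

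Macrophage genes were called in 3 of 10 in C22 (2 lower, 1 higher) and 1 of 10 in C3 (lower), and fibroblast genes in 1 of 8 in C22 (lower) and 0 of 8 in C3 by edgeR (2 at an unadjusted p under 0.05). Adipocyte, blood and skeletal muscle genes were called in 0 of 6, 0 of 4 and 0 of 6 tested in both comparisons by edgeR (in C3 1, 3 and 1 and in C22 0, 0 and 1 at an unadjusted p under 0.05), with summed levels that ranged widely within groups, for skeletal muscle from 5.58 CPM in a C3 c-JunP0Cre library to 8448 CPM in a WT-C22 library. No part of these lists in the members' values was tested.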
